A study of Mus musculus with 16 samples.

Results

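Interferon-stimulated antiviral genes are the genes that cells switch on after sensing a virus, a bacterium or interferon itself. A list of 40 of them, chosen by name, was followed through the deposited count table, and every one was found among its 43430 Ensembl genes. All 40 passed the low-count filter that left 11004 genes for testing. Of these, 39 passed in the untreated libraries alone, and Mx2 passed only through its counts after LPS.

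The study measured RNA in bone marrow-derived macrophages, cells grown from the marrow of C57BL/6J mice (strain given as c57/bl6) with macrophage colony-stimulating factor at 20 ng/mL and harvested on day 6. Its 4 groups of 4 libraries were untreated cells in complete MEM, untreated cells in MEM lacking serine, and cells in each of these media with lipopolysaccharide (LPS), a bacterial cell wall component, at 100 ng/mL. RNA was isolated 4 h after LPS. No genetic change was made in any group, and the time the cells spent without serine is not given in the sources used here. These macrophages were made in a dish with a growth factor, and whether the replicates of a group are separate animals is not stated. By sex-linked RNA, replicate 1 of each group was male and the others female, so a group holds cells of more than 1 animal. Replicates 2 to 4 may share an animal, so a p-value here covers the scatter of the libraries, which may be technical in part. The series title names serine metabolism and the cytokine IL-1β. For the antiviral genes the design asks how far LPS raised them in each medium, and whether serine in the medium changed their levels.

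In macrophages, LPS binds the receptor TLR4, and the adaptor TRIF then leads through the kinases TBK1 and IKKε to the factor IRF3 and to interferon beta. Interferon beta leaves the cell, binds the receptor made of IFNAR1 and IFNAR2, and signals through the kinases JAK1 and TYK2 to the nucleus. There STAT2 and IRF9 act at the interferon-stimulated response element in gene promoters, and the products sense foreign RNA, degrade it, block its translation or stop virus particles from leaving.

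The response element was searched for in RefSeq promoters of the GRCm38.p6 build, from 250 bases before to 50 after each start, as GAAANNGAAA on either strand. A promoter was in the table for 30 of the 40 genes. The genes named only are Mx1, Mx2, Dhx58, Oas2, Usp18, Zbp1, Parp9, Parp14, Rtp4 and Ifi204. The motif stood in 12 of the 30, or 40% (exact 95% binomial interval 22.7% to 59.4%), and in 3.99% of the 27025 genes of the table. Read against the bases before the start alone, it stood in 33.3% and 3.46%. A match describes letters in a window and is not a measured binding site. Of the 6 genes shown here, Isg15, Ifit1, Ifit3 and Rsad2 had some of the largest LPS responses, and Oas3 and Bst2 had small ones. Each is written 5′ to 3′ on the strand of its gene with 15 bases on either side, and capitals mark the matches, which overlap one another in Isg15 and Bst2.
Isg15: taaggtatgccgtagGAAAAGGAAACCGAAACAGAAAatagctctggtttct
Ifit1: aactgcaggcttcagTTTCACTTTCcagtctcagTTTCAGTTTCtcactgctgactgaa
Ifit3: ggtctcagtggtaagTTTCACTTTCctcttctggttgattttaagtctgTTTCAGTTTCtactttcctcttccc
Rsad2: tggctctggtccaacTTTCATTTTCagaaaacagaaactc
Oas3: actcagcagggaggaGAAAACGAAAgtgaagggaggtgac
Bst2: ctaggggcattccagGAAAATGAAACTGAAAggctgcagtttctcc
The stretches lie at chr4:156200860-156200911 (minus strand), chr19:34640770-34640828 (plus), chr19:34583358-34583431 (plus), chr12:26456548-26456587 (minus), chr5:120777710-120777749 (minus) and chr8:71537572-71537617 (minus). They end between 42 bases (Isg15) and 100 bases (Bst2) before the start. Isg15 held 3 matches in one run, Ifit1, Ifit3 and Bst2 held 2 each, and Rsad2 and Oas3 held 1. The other matching genes were Ifih1, Ddx58, Ddx60, Oas1a, Trim30a and Ifi205. The 12 genes with a match had a median LPS log2 fold change with serine of 4.89, from 1.30 in Bst2 to 8.85 in Rsad2. The 18 without one had a median of 3.95, from 1.03 in Lgals3bp to 8.94 in Cmpk2, and the 2 ranges overlap over most of their span.

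Total counts ran from 2871477 to 10043362 per library, with replicate 4 of the untreated cells without serine the lowest. That library had 12900 genes detected, against 14000 to 16031 in the other 15. Macrophage markers, 10 of 10 detected in each group, summed to 31933 to 45237 CPM (the count scaled by library size) in every library. Of 5 T and NK cell markers, Cd3e, Cd3d and Cd3g were at 0 in all groups. Klrb1c was detected in untreated cells with serine and Ncr1 in LPS-treated cells with serine. The 5 summed to at most 0.251 CPM in the first of these groups and 0.169 CPM in the second. Y-linked genes gave 1184 to 2391 counts, and Xist none, in replicate 1 of each group. In the other 12 libraries Xist gave 351 to 1477 counts and Y-linked genes at most 1, so replicate 1 was the only male sample of a group. B cell markers summed to at most 3.04 CPM.

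**Figure D1:**
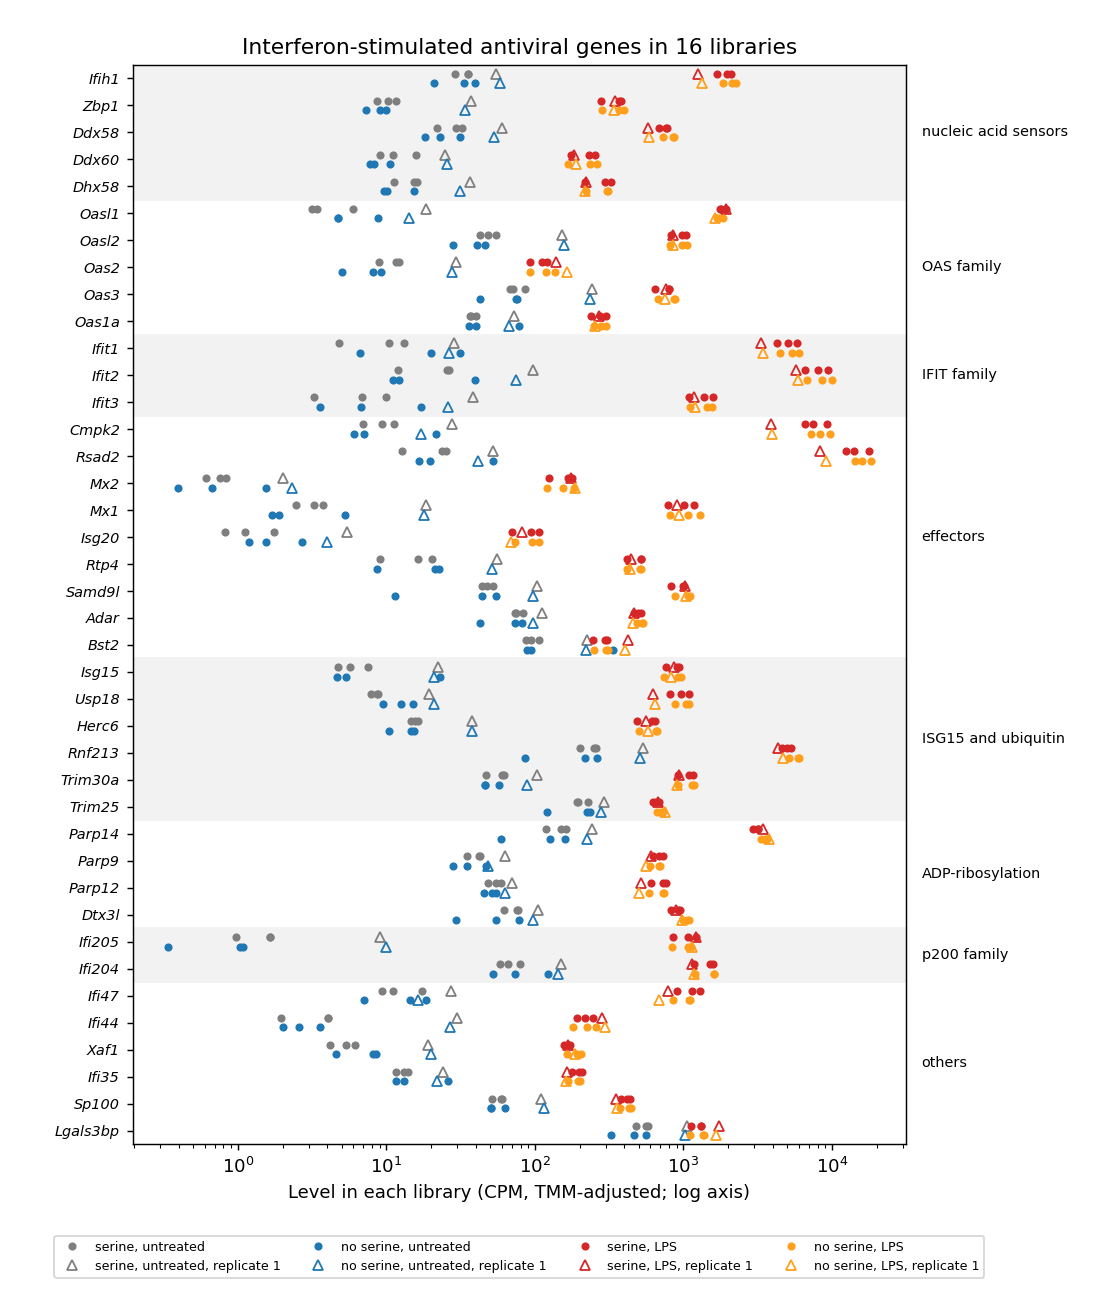
Level of each of the 40 genes in each of the 16 libraries in CPM (log axis), ordered by role and, within a role, by the LPS response with serine; filled points are replicates 2 to 4 and open triangles replicate 1. The LPS libraries lie to the right of the untreated ones for every gene except Bst2 without serine, and in untreated cells with serine the open triangle is the rightmost of its group for all 40 genes.

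LPS raised nearly the whole set. Of the 39 genes that passed the filter in the untreated libraries alone, 39 rose with serine in edgeR's quasi-likelihood test, against 27.6% of the 11004 genes called higher in that comparison. Without serine 38 of the 39 rose, against 27.1%. Mx2, which entered through its LPS libraries, is left out of these counts. Log2 fold changes, given throughout with the standard error of the fit, had a median over the 39 of 4.22 with serine and 4.29 without, while the median over all tested genes was -0.029 and -0.12. In the libraries themselves, the lowest LPS value exceeded the highest untreated value in 40 of 40 genes with serine and in 39 of 40 without. Over all tested genes that was so for 30.7% and 25.3%. The counts over 40 genes include Mx2, whose entry through its LPS libraries favours such a gap, as do the shares of counts that follow. The 40 genes together took 0.338% ± 0.146 (SD, n = 4) of the counts in untreated cells with serine and 0.308% ± 0.148 without. After LPS they took 5.22% ± 0.756 and 5.47% ± 0.813. Conventional dendritic cell markers, 5 in the list, summed to 0.418 to 2.36 CPM in untreated and 7.28 to 14.7 CPM in LPS-treated libraries, and 5 fibroblast markers to 1.01 to 19.99 and 14.8 to 44.5 CPM. Cd209a was at 0 in 3 of the 4 groups, and the part of such cells in the result was not tested. In RNA from whole cultures, fewer cells that respond and less RNA per cell cannot be told apart.

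Levels per gene length, in RPKM from the deposited lengths, show how the order of the genes changed. In untreated cells with serine the most abundant were Bst2 at 168 ± 85.2 RPKM (SD, n = 4), Lgals3bp at 139 ± 54.4 and Oas1a at 24.6 ± 9.19. The least abundant were Mx2 at 0.124 ± 0.0764, Isg20 at 0.511 ± 0.480 and Mx1 at 0.566 ± 0.620 RPKM. After LPS with serine the order was led by Cmpk2 at 2126 ± 708 RPKM, Ifit1 at 1735 ± 397, Ifit2 at 1650.1 ± 364 and Rsad2 at 1562 ± 461, whose spreads overlap. Oas2 at 10.5 ± 1.75 and Ddx60 at 13.04 ± 2.40 RPKM closed it. Bst2 thus went from rank 1 to rank 8, and Cmpk2 from rank 21 to rank 1.

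The 5 nucleic acid sensors rose by 3.74 to 5.49 on the log2 scale with serine and by 3.95 to 5.62 without, with the largest adjusted p in the group at 1.57e-06. Ifih1 encodes MDA5, which binds long double-stranded RNA. Ifih1 stood at 54.9, 28.8, 35.5 and 35.5 CPM in untreated replicates 1 to 4 with serine and at 57.8, 33.4, 39.6 and 20.9 without it, and after LPS at 1252, 1671, 2081 and 1977 and at 1329, 1852, 2249.8 and 2125 CPM. Its LPS and untreated values do not overlap in either medium, and replicate 1 was the lowest of both LPS groups. The log2 fold change was 5.49 ± 0.32 with serine (adjusted p = 3.51e-10) and 5.62 ± 0.32 without (adjusted p = 3.45e-10). Ddx58 encodes RIG-I, which recognises RNA with a triphosphate end, and rose by 4.28 ± 0.34 with serine (adjusted p = 1.81e-08) and 4.56 ± 0.35 without (adjusted p = 1.08e-08). Dhx58 encodes LGP2, a regulator of both, and rose by 3.74 ± 0.39 with serine (adjusted p = 4.46e-07) and 3.95 ± 0.40 without (adjusted p = 2.99e-07). Zbp1, a sensor of Z-form nucleic acid that can start necroptosis, rose by 4.33 ± 0.51 with serine (adjusted p = 1.57e-06) and 4.46 ± 0.51 without (adjusted p = 1.34e-06). The helicase Ddx60 rose by 3.79 ± 0.37 and 3.99 ± 0.38 (adjusted p = 2.01e-07 and 1.38e-07).

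In the OAS family the responses fell far apart. The enzymes Oas1a, Oas2 and Oas3 join ATP into oligoadenylates that activate RNase L, and Oasl1 and Oasl2 are related to them. Oasl1 stood at 18.6, 3.17, 3.39 and 5.99 CPM in untreated replicates 1 to 4 with serine and at 14.2, 4.75, 8.72 and 4.72 without it, and after LPS at 1944, 1798, 1931 and 1753 and at 1629, 1709.8, 1845 and 1672 CPM. These LPS values lie close together in all 8 libraries, and untreated replicate 1 was the highest of each untreated group. Oasl1, known to hold back translation of IRF7, changed most of the family, by 7.88 ± 0.54 with serine (adjusted p = 2.61e-09) and 7.66 ± 0.54 without (adjusted p = 3.78e-09). Oas3 stood at 241, 85.6, 70.8 and 67.8 CPM in untreated replicates 1 to 4 with serine and at 234, 76.2, 74.4 and 42.5 without it, and after LPS at 762, 648, 796 and 796 and at 750.3, 676, 862 and 873 CPM. Here untreated replicate 1 lay between the other untreated libraries and the LPS ones. Oas3 rose by 2.69 ± 0.47 with serine (adjusted p = 0.000112) and 2.88 ± 0.47 without (adjusted p = 6.58e-05), Oas1a by 2.55 ± 0.25 and 2.31 ± 0.25 (adjusted p = 2.23e-07 and 7.05e-07), Oas2 by 2.89 ± 0.43 and 3.27 ± 0.44, and Oasl2 by 3.63 ± 0.49 and 3.75 ± 0.50. Oas1a has a close copy, Oas1g, and reads of the pair cannot be told apart here with certainty.

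The 3 IFIT genes, whose products bind foreign RNA and translation factors, rose by 6.47 to 8.33 with serine and 6.59 to 7.86 without. Ifit1 stood at 28.6, 4.81, 13.2 and 10.4 CPM in untreated replicates 1 to 4 with serine and at 26.5, 6.63, 20.00 and 31.4 without it, and after LPS at 3336, 4254, 5788 and 5059 and at 3409, 4490.4, 5983 and 5406 CPM. The untreated groups both span several fold, and no LPS value comes near them. Ifit1, which binds RNA whose cap lacks the host's methyl mark, rose by 8.33 ± 0.59 with serine (adjusted p = 3.48e-09) and 7.86 ± 0.58 without (adjusted p = 6.23e-09). Ifit2 stood at 96.8, 11.98, 25.8 and 26.4 CPM in untreated replicates 1 to 4 with serine and at 74.2, 11.1, 39.8 and 12.1 without it, and after LPS at 5724, 6585, 9448 and 8063 and at 5933, 6810.3, 10019 and 8613 CPM. Ifit2 rose by 7.53 ± 0.75 with serine (adjusted p = 2.28e-07) and 7.80 ± 0.76 without (adjusted p = 1.85e-07). Ifit3 stood at 38.4, 3.28, 9.93 and 6.82 CPM in untreated replicates 1 to 4 with serine and at 25.8, 3.56, 17.1 and 6.75 without it, and after LPS at 1180.3, 1094, 1579.6 and 1375 and at 1191, 1111, 1568 and 1435 CPM. Ifit3, a binding partner of Ifit1 with a close copy in Ifit3b, rose by 6.47 ± 0.71 with serine (adjusted p = 7.14e-07) and 6.59 ± 0.71 without (adjusted p = 6.76e-07). In all 3, untreated replicate 1 with serine stood highest, and for Ifit1 without serine replicate 4 was higher still.

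Direct effectors held the largest and some of the smallest responses. Cmpk2, a mitochondrial nucleotide kinase, and Rsad2, whose product viperin turns CTP into a terminator of viral RNA synthesis, are head-to-head neighbours 12751 bases apart at chr12:26469204-26479835 (plus strand) and chr12:26442753-26456452 (minus strand) in mm10. Cmpk2 stood at 27.5, 6.96, 11.3 and 9.33 CPM in untreated replicates 1 to 4 with serine and at 17.1, 6.04, 21.7 and 7.08 without it, and after LPS at 3876, 6544, 9314 and 7462 and at 3975, 7209, 9729 and 8281 CPM. Rsad2 stood at 52.03, 12.8, 25.1 and 23.7 CPM in untreated replicates 1 to 4 with serine and at 41.4, 16.5, 52.6 and 19.6 without it, and after LPS at 8332, 12389.7, 17664 and 14044 and at 9084, 14200.1, 18308 and 16029.7 CPM. In both genes replicate 1 was the lowest LPS library of each medium. Cmpk2 rose by 8.94 ± 0.60 with serine (adjusted p = 2.13e-09) and 9.10 ± 0.61 without (adjusted p = 2.08e-09), a 490-fold change with serine. Rsad2 rose by 8.85 ± 0.56 with serine (adjusted p = 8.68e-10) and 8.78 ± 0.55 without (adjusted p = 1.01e-09).

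Mx1 and Mx2 belong to a family of dynamin-like GTPases known to trap viral components. The Mx1 allele of C57BL/6 mice carries a deletion that leaves it without antiviral function, and no protein of either gene was measured here. Mx1 stood at 18.4, 2.46, 3.27 and 3.76 CPM in untreated replicates 1 to 4 with serine and at 17.9, 1.88, 5.26 and 1.69 without it, and after LPS at 899.6, 782, 1179 and 1003 and at 939, 807, 1294 and 1078 CPM. Mx1 rose by 7.08 ± 0.73 with serine (adjusted p = 3.71e-07) and 7.13 ± 0.73 without (adjusted p = 3.87e-07). Mx2 stood at 2.02, 0.614, 0.754 and 0.835 CPM in untreated replicates 1 to 4 with serine and at 2.31, 0.396, 1.54 and 0.675 without it, and after LPS at 175, 124, 178 and 166 and at 187, 121, 184 and 154 CPM, with 2 to 29 counts per untreated library. Untreated Mx2 was near the limit of detection, and the lowest LPS library of each medium stood far above the highest untreated one. As Mx2 passed the filter through its LPS libraries, its test is given from the fit with no filter, where it stood at 7.27 with serine (adjusted p = 1.36e-12) and 6.94 without (adjusted p = 2.72e-12). Isg20, an exonuclease for RNA, rose by 5.21 ± 0.43 and 5.17 ± 0.44. Samd9l, an antiviral factor that limits translation, rose by 3.96 ± 0.43 and 4.29 ± 0.44, Rtp4 by 4.22 ± 0.52 and 4.17 ± 0.52, and Adar, which edits adenosine to inosine in double-stranded RNA, by 2.51 ± 0.20 and 2.75 ± 0.20 (adjusted p of Adar = 1.43e-08 and 5.85e-09).

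Bst2, or tetherin, holds budding virus particles on the cell surface and had the highest untreated mean per gene length, a lead over Lgals3bp that is within their spreads. In CPM, which does not allow for length, Lgals3bp and others stood above it. Bst2 stood at 225, 87.5, 94.4 and 106 CPM in untreated replicates 1 to 4 with serine and at 221, 88.1, 93.7 and 335 without it, and after LPS at 422, 246, 306 and 296 and at 405, 249, 309 and 299.7 CPM. Without serine, untreated replicate 4 lay above 3 of the 4 LPS libraries of its medium, and this was the single gene whose groups overlapped. Bst2 rose by 1.30 ± 0.39 with serine (adjusted p = 0.00882), and stood at 0.79 ± 0.38 without, where it missed the threshold (adjusted p = 0.0917). With the replicate number as a block the second value was 0.91 (adjusted p = 0.0132), and with untreated replicate 4 left out it was 1.23 (adjusted p = 0.0131). With total-count scaling it was 0.27 (adjusted p = 0.498). The response of Bst2 was not shown to differ between the media: the difference between the withdrawals, which equals the difference between the LPS responses, was -0.52 ± 0.54 (adjusted p = 0.95).

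In the ISG15 and ubiquitin group, 6 of 6 genes rose in both media. Isg15 encodes a ubiquitin-like protein that is joined to other proteins. Isg15 stood at 22.1, 4.71, 5.66 and 7.52 CPM in untreated replicates 1 to 4 with serine and at 20.96, 5.34, 4.62 and 22.9 without it, and after LPS at 863, 759, 936 and 899 and at 825, 739, 957 and 913 CPM. Untreated replicate 4 without serine, at 22.9 CPM, was as high as replicate 1, and the other untreated libraries were below 8 CPM. Isg15 rose by 6.42 ± 0.57 with serine (adjusted p = 5.67e-08) and 6.05 ± 0.56 without (adjusted p = 1.09e-07). Usp18 stood at 19.5, 7.88, 8.80 and 8.63 CPM in untreated replicates 1 to 4 with serine and at 20.9, 9.50, 15.1 and 12.5 without it, and after LPS at 624, 810.2, 1097 and 963 and at 639, 884, 1093 and 1039 CPM. Usp18, which removes ISG15 and dampens the interferon receptor, rose by 6.27 ± 0.36 with serine (adjusted p = 2.68e-10) and 5.96 ± 0.35 without (adjusted p = 4.67e-10). The ISG15 ligase Herc6 rose by 4.76 ± 0.38 and 4.90 ± 0.38, the large ubiquitin ligase Rnf213 by 3.95 ± 0.42 and 4.33 ± 0.43, and Trim30a by 3.92 ± 0.26 and 4.11 ± 0.26 (adjusted p = 1.6e-09 and 1.09e-09), with close copies in the Trim30 cluster. Trim25, the ubiquitin ligase linked to RIG-I, was among the 3 weakest responders at 1.54 ± 0.20 with serine (adjusted p = 4.28e-06) and 1.72 ± 0.20 without (adjusted p = 1.34e-06).

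The 4 genes of ADP-ribosylation rose by 3.49 to 4.24 with serine and 3.58 to 4.64 without. Parp12 had the narrowest interval of all members, with a log2 fold change of 3.49 ± 0.18 with serine (95% interval 3.11 to 3.87) and 3.58 ± 0.18 without. Parp14, which places single ADP-ribose units on proteins, rose by 4.24 ± 0.32 and 4.64 ± 0.33. Parp9 and its partner ligase Dtx3l rose by 3.86 ± 0.20 and 3.49 ± 0.27 with serine and by 3.99 ± 0.20 and 3.97 ± 0.28 without. Parp9 (chr16:35938470-35972605, plus strand) and Dtx3l (chr16:35926511-35939151, minus strand) overlap by 682 bases. The kit keeps no strand, and reads from the shared stretch cannot be assigned to one gene.

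Ifi204 and Ifi205 belong to the p200 family of DNA-binding proteins on chromosome 1, whose members resemble one another in sequence. Ifi205 stood at 8.99, 1.64, 1.63 and 0.974 CPM in untreated replicates 1 to 4 with serine and at 9.96, 1.09, 1.03 and 0.337 without it, and after LPS at 1217, 845, 1222 and 1069 and at 1141, 832, 1132 and 1067 CPM. Ifi205 rose by 8.30 ± 0.77 with serine (adjusted p = 1e-07) and 8.13 ± 0.77 without (adjusted p = 1.3e-07). Ifi204 stood at 149, 57.9, 79.3 and 65.8 CPM in untreated replicates 1 to 4 with serine and at 144, 52.3, 73.5 and 123 without it, and after LPS at 1147, 1184, 1587 and 1509 and at 1177, 1206, 1612 and 1615 CPM. Ifi204 rose by 3.94 ± 0.34 with serine (adjusted p = 4.64e-08) and 3.84 ± 0.34 without (adjusted p = 6.54e-08). The gap between the 2 genes before LPS, 0.677 against 22.5 RPKM with serine, narrowed to 223 against 347 RPKM after it.

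Among the others, Ifi47, an immunity-related GTPase, rose by 5.98 ± 0.38 and 6.05 ± 0.38. Ifi44 had the widest interval of the set. Ifi44 stood at 29.8, 1.95, 4.02 and 4.04 CPM in untreated replicates 1 to 4 with serine and at 26.9, 2.57, 3.59 and 2.02 without it, and after LPS at 282, 193, 245 and 219 and at 295, 179, 259.8 and 223 CPM. Untreated replicate 1 was far above the other 3 in both media, and Ifi44 rose by 4.53 ± 0.80 with serine (adjusted p = 0.000134) and 4.62 ± 0.81 without (adjusted p = 0.000124). Without that library the value was 6.15 with serine and 6.39 without. Xaf1, which acts in apoptosis, rose by 4.22 ± 0.45 and 4.14 ± 0.45, Ifi35 by 3.57 ± 0.26 and 3.35 ± 0.26, and Sp100, a nuclear body protein, by 2.49 ± 0.27 and 2.51 ± 0.27 (adjusted p = 6.31e-07 and 6.17e-07). Lgals3bp stood at 1054, 479.8, 579 and 557 CPM in untreated replicates 1 to 4 with serine and at 1032, 463, 561 and 327 without it, and after LPS at 1735, 1117, 1307 and 1310.2 and at 1646, 1113, 1369 and 1359 CPM. Lgals3bp, a secreted galectin-binding glycoprotein, had the smallest response with serine, 1.03 ± 0.30 with serine (adjusted p = 0.00796) and 1.20 ± 0.30 without (adjusted p = 0.00298), and its LPS values began just above the highest untreated one. Without replicate 3 of both groups it missed the threshold at 0.99 (adjusted p = 0.0659).

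**Figure D2:**
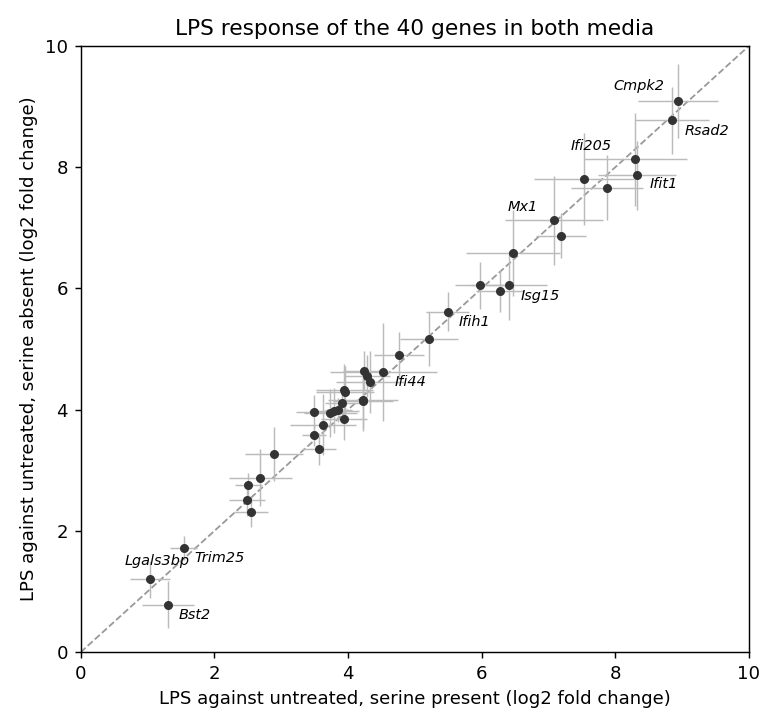
Log2 fold change of LPS against untreated cells with serine (horizontal) and without serine (vertical) for the 40 genes, with standard errors of the fit; the dashed line marks equal values. Points run from Lgals3bp at 1.03 and 1.20 to Cmpk2 at 8.94 and 9.10, and Bst2 at 1.30 and 0.79 lies below the line.

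Scaling to total counts in place of TMM shifted the median of all genes to -0.64 with serine and -0.69 without. Of all genes, 15.1% were then called higher and 58.2% lower with serine, and 15.3% and 59.7% without, against 27.6% and 28.2%, and 27.1% and 29.7%, with TMM. On that scale the median of the 40 genes was 3.60 and 3.69, and 38 of 40, Mx2 included, rose in each medium. Bst2 at 0.69 (adjusted p = 0.0946) and Lgals3bp at 0.42 (adjusted p = 0.243) missed the threshold with serine, and Bst2 at 0.27 (adjusted p = 0.498) and Lgals3bp at 0.61 (adjusted p = 0.0941) missed it without. The authors' deposited tables mark 40 of the 40 genes, Mx2 included, as higher after LPS with serine, against 27.9% of the genes in the table. Without serine they mark 39 of the 40, against 19.1%.

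The upstream pathway was followed in a separate list of 32 genes of interferon production and signalling, of which 31 matched a row by symbol and 28 were tested. With serine 22 of the 28 rose and 2 fell, against 27.6% and 28.2% of all genes. Without serine 24 rose and 2 fell, against 27.1% and 29.7%. Both counts include Socs1, which passed the filter through its LPS libraries, and such entry favours a rise. Ifnb1, the gene of interferon beta, had 0 counts in all 8 untreated libraries, where 3 counts would equal 0.239 to 1.01 CPM. After LPS it had 52 counts over the 4 libraries with serine (2 to 29 each) and 36 without (4 to 18 each), too few to pass the filter. Ifna4 and Ifng had 0 counts in all 16 libraries. The receptor genes Ifnar1 and Ifnar2 rose by 1.57 ± 0.21 and 1.30 ± 0.14 with serine and by 1.77 ± 0.21 and 1.32 ± 0.14 without. Of the kinases below them, Jak1 rose by 1.07 ± 0.19 and 1.38 ± 0.19 and Tyk2 by 1.45 ± 0.18 and 1.61 ± 0.18. With total-count scaling Jak1 missed the threshold with serine, at 0.45 (adjusted p = 0.0666).

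Among the transcription factors, Stat2 rose by 4.22 ± 0.29 with serine (adjusted p = 3.2e-09) and 4.46 ± 0.30 without, and Irf9 by 1.47 ± 0.13 and 1.48 ± 0.13. Irf7, which amplifies interferon production, stood at 476, 67.3, 91.1 and 79.3 CPM in untreated replicates 1 to 4 with serine and at 456, 65.6, 91.2 and 83.3 without, and after LPS at 1092, 725, 945 and 935 and 978, 671, 970.3 and 937. Untreated replicate 1 was several fold above the rest, and Irf7 rose by 2.37 ± 0.65 (adjusted p = 0.00521) and 2.34 ± 0.65 (adjusted p = 0.00564). The kinases Tbk1 and Ikbke rose by 1.37 ± 0.13 and 2.51 ± 0.21 with serine and by 1.48 ± 0.13 and 2.32 ± 0.21 without. Socs1, the feedback inhibitor of this signalling, rose by 7.56 ± 0.41 and 6.11 ± 0.39. Untreated Socs1 was near the limit of detection, with 0 to 8 counts per library with serine and 0 to 14 without. The difference between its LPS responses was -1.45. In edgeR's test 0 of the 28 pathway genes passed the threshold for that difference (lowest adjusted p = 0.95). Tlr4 stood at 0.11 ± 0.19 with serine (adjusted p = 0.659) and 0.59 ± 0.19 without (adjusted p = 0.0142), and its direction turned with total-count scaling, at -0.51 and -0.0073.

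For serine withdrawal no member of the set passed the threshold, with or without LPS. In untreated cells edgeR's test called 0 of 40 members, against 0% of all genes, and 0 members had an unadjusted p under 0.05, against 4.98% of all genes. With LPS it called 0 of 40, against 0.0636%, and 0 had an unadjusted p under 0.05, against 6.14%. At shares this low, few or no calls among 40 genes are near the background. With the replicate block 0 of 40 were called in either comparison, while 0.0818% and 0.891% of all genes were. DESeq2 called 0 of the members in untreated and 0 in LPS-treated cells, against 0.118% and 0.854% of all genes. The median log2 fold change of the members was -0.073 in untreated cells and 0.026 with LPS, and that of all genes was 0.012 and 0.0032.

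How large a change the intervals of the fit without the replicate block leave room for depended on LPS. In untreated cells the log2 fold changes of the 40 genes ran from -0.28 to 0.53, and the 95% interval lay within 1 log2 unit of no change in 17 of 40, against 81% of all genes. With LPS they ran from -0.14 to 0.20, and the interval lay within that limit in 35 of 40, against 80.9%. The 5 exceptions were Ifit2, Ifit3, Mx1, Ifi44 and Ifi205. With the block the members' median standard error fell from 0.381 to 0.309 in untreated cells and from 0.341 to 0.279 with LPS. Part of the width is thus deviation shared by libraries of the same replicate number, and intervals with the block were not counted. For Rsad2 the difference with LPS was 0.14 ± 0.39 (interval -0.70 to 0.97), for Isg15 -0.0097 ± 0.44 (interval -0.94 to 0.93) and for Ifih1 0.11 ± 0.26 (interval -0.44 to 0.67). Mx1 stood at 0.092 ± 0.55, Ifit1 at 0.065 ± 0.42, Usp18 at 0.065 ± 0.28, Oasl1 at -0.12 ± 0.39 and Ifi204 at 0.048 ± 0.30. None of these 8 passed the test (the lowest adjusted p over the 40 members was 0.9996).

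With LPS the highest fold changes were those of Dtx3l at 0.20 ± 0.24, Xaf1 at 0.18 ± 0.38 and Rnf213 at 0.18 ± 0.38, and the lowest those of Ifi47 at -0.14 ± 0.30, Oasl1 and Parp9 at -0.065 ± 0.18. Dtx3l stood at 105, 61.8, 75.4 and 76.7 CPM in untreated replicates 1 to 4 with serine and at 97.3, 54.7, 77.97 and 29.3 without it, and after LPS at 893, 828, 942 and 915 and at 977, 990.0, 1083 and 1051 CPM. After LPS all 4 libraries without serine lay above all 4 with it, the single member of which this was true, against 4.27% of all genes. The differences within pairs of the same replicate number were 0.13, 0.26, 0.20 and 0.20. Pairs of Rnf213 differed by 0.12, 0.16, 0.25 and 0.18 and pairs of Parp14 by 0.15, 0.18, 0.19 and 0.16. In 15 of the 40 genes the library without serine was higher in 4 of 4 LPS-treated pairs, against 18.6% of all genes, and in 5 of 40 it was lower in 4 of 4, against 16%. These differences lay between -0.26 and 0.26, and libraries of 1 number share their deviations across genes, so the members are not independent of one another.

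In untreated cells the same 8 genes stood at 0.21 ± 0.41 for Rsad2, 0.049 ± 0.64 for Mx1, 0.53 ± 0.46 for Ifit1, 0.36 ± 0.50 for Isg15, 0.38 ± 0.31 for Usp18, -0.0066 ± 0.27 for Ifih1, 0.10 ± 0.45 for Oasl1 and 0.15 ± 0.31 for Ifi204. The smallest adjusted p over the 40 members was 0.831. The highest fold changes were those of Ifit1, Bst2 at 0.51 ± 0.38 and Usp18, and the lowest those of Dtx3l at -0.28 ± 0.25, Samd9l at -0.24 ± 0.39 and Oas2 at -0.23 ± 0.43. In most of these the pair of replicate 4 gave the widest difference. Pairs 1 to 4 of Bst2 differed by -0.031, 0.0085, -0.010 and 1.65, those of Ifit1 by -0.11, 0.44, 0.59 and 1.56 and those of Samd9l by -0.10, -0.016, 0.19 and -2.17. With untreated replicate 4 without serine left out, Bst2 stood at 0.064, Ifit1 at 0.31, Usp18 at 0.43, Dtx3l at -0.058, Samd9l at 0.065 and Oas2 at -0.028. The members' median turned with replicate 1, at 0.51 when it was left out of the cells with serine and at -0.49 when it was left out of those without, and 0 members were called in either fit.

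**Figure D3:**
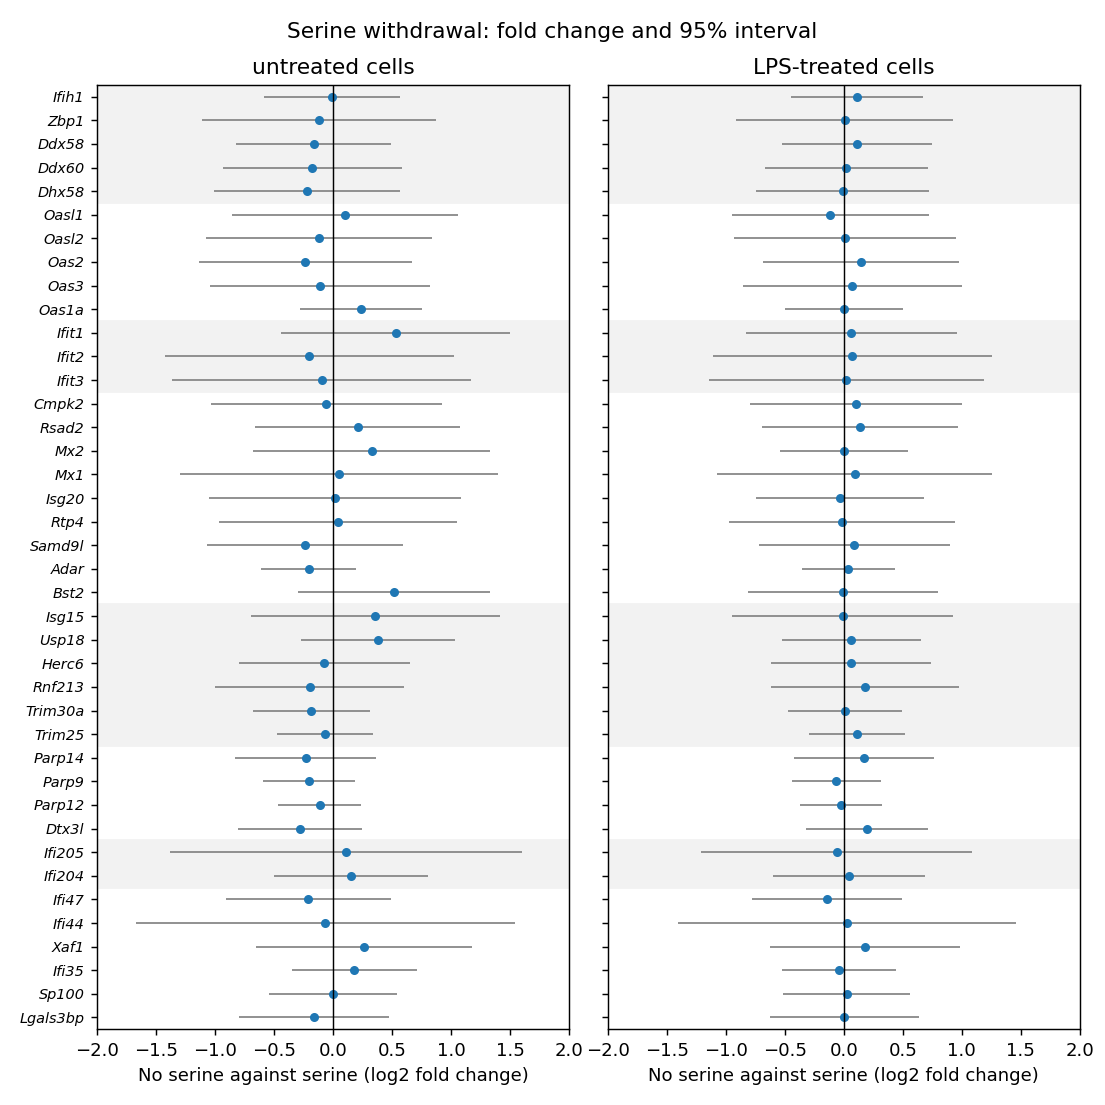
Log2 fold change of cells without serine against cells with serine for the 40 genes in untreated (left) and LPS-treated (right) cells. Lines are 95% intervals from the fit without the replicate block. Every interval includes 0, and it stays within 1 log2 unit for 17 genes on the left and 35 on the right.

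Whether withdrawal acted differently with and without LPS was tested as a difference of differences. The difference of the log2 changes (with LPS minus without) passed the threshold in 0 of 40 members and in 0% of all genes, and 0 members had an unadjusted p under 0.05, against 2.3% of all genes. It ran from -0.52 ± 0.54 in Bst2 and -0.46 ± 0.62 in Ifit1 to 0.48 ± 0.35 in Dtx3l, and its interval lay within 1 log2 unit in 9 of 40. Isg15 stood at -0.37 ± 0.66 and Usp18 at -0.31 ± 0.42 among the lowest, Parp14 at 0.40 ± 0.40 and Rnf213 at 0.38 ± 0.53 among the highest, and Rsad2 at -0.071 ± 0.57, Mx1 at 0.043 ± 0.85, Ifih1 at 0.12 ± 0.38, Oasl1 at -0.22 ± 0.60 and Ifi204 at -0.10 ± 0.43 between them. In a fit with the replicate block that left out untreated replicate 4 without serine, 922 genes, or 8.3% of 11107, were called for withdrawal with LPS and 79 (0.711%) without it. The members called were 0 of 40 in both, and the lowest adjusted p was 0.394 for Dtx3l with LPS and 0.8287 for Mx2 without. Of the pathway list, that fit called 0 of 29 genes for withdrawal without LPS and 4 with it, chosen for mention after their values were seen: Traf3 at 0.44, Tlr4 at 0.48 and Ticam2 at 0.39, and Socs1 at -0.57 (highest adjusted p of the 4 = 0.00963). With all 16 libraries, with or without the block, 0 of the 28 pathway genes tested were called in either withdrawal. The authors' deposited tables mark 0 of the 40 genes in either withdrawal, against 0.052% of the genes in the table without LPS and 0.779% with it. Here too the marks are stricter than 0.05, with the authors' highest adjusted p of a marked gene at 0.00706 and 0.00945.

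Replicate 4 of the untreated cells without serine departed from replicates 2 and 3 of its group according to the length of the gene. Over all genes, the 3670 shortest (57 to 4240 bases) stood at a median of 0.36 on the log2 scale, the 3666 of middle length at -0.086 and the 3668 longest (9790 to 213012 bases) at -0.50. The 40 members showed the same order more widely, with medians of 0.79 for 12 short, -0.53 for 17 middle and -0.79 for 11 long genes. Isg15, at 756 bases, stood at 2.15 and Ifit1, at 2656 bases, at 1.42, while Parp14, at 12023 bases, stood at -1.27. The order did not hold gene by gene: Samd9l, of middle length at 5757 bases, stood at -2.06, lower than every long member. The part of gene length in the withdrawal values was not tested.

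Among untreated cells the strongest contrast within the set lay between replicate numbers. With serine, replicate 1 was the highest of its group in 40 of 40 genes, by a median of 1.21 log2 units over the mean of replicates 2 to 4, and 28 of 40 exceeded it by more than 1. Over the 11004 genes replicate 1 was the highest in 36.6%, the median was 0.040 and 1.86% exceeded 1. Without serine, replicate 1 was the highest in 32 of 40 genes, against 29.9% of all genes, by a median of 1.198, with 24 above 1 against 3.62% of all genes. The largest were Ifi44 at 3.12 and 3.21, Ifi205 at 2.48 and 3.31, Mx1 at 2.46 and 2.66, and Ifit3 at 2.60 and 1.75. The smallest was Parp12 at 0.38 and 0.32. As replicate 1 is 1 culture per group, these values have no test.

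After LPS the order did not persist. Replicate 1 stood at a median of -0.12 with serine and -0.16 without. It was the highest in 7 and 8 of the 40 genes, against 32.2% and 32.5% of all genes. Cmpk2 and Rsad2 stood lowest there, at -0.99 and -0.80 with serine, and Bst2 stood highest at 0.58. The LPS response was smallest in pair 1 for 40 of 40 genes with serine, against 33.5% of all genes, and for 39 of 40 without, against 26.1%. Its median over the members was 3.22 in pair 1 and 4.71, 4.48 and 4.61 in pairs 2 to 4 with serine, and 3.39 against 4.85, 4.53 and 5.22 without. For Mx1 the pairs with serine gave 5.59, 8.16, 8.38 and 7.96, for Isg15 5.27, 7.25, 7.30 and 6.85 and for Rsad2 7.32, 9.89, 9.44 and 9.20. Leaving out untreated replicate 1 alone raised the fold by over 1.5 times in 15 of 40 genes with serine and in 12 without, most in Ifi44 with serine and Ifi205 without, and no other single library did so in any member. With replicate 1 of both groups left out the members' median LPS response was 4.55 with serine and 4.83 without.

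The male sample, the replicate number and whatever else set these cultures apart cannot be told apart. Irf7 moved with the members, at 476 CPM in untreated replicate 1 with serine against 67.3 to 91.1 in the other 3. Ifnb1 had no counts there. Neutrophil markers, 6 in the list, summed to 80.5 to 106 CPM in replicate 1 of the 4 groups and to 7.78 to 30.7 CPM in the other 12 libraries. Ly6g was at 0 in 3 of the 4 groups and Elane in both LPS groups. Plasmacytoid dendritic cell markers, 6 in the list, summed to 2.22 CPM in untreated replicate 1 with serine, the lowest of its group, and to at most 7.28 CPM in any library. Of these, Klk1 was at 0 in all groups and Pacsin1 in untreated cells with serine. The part of such cells in the result was not tested.

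**Figure D4:**
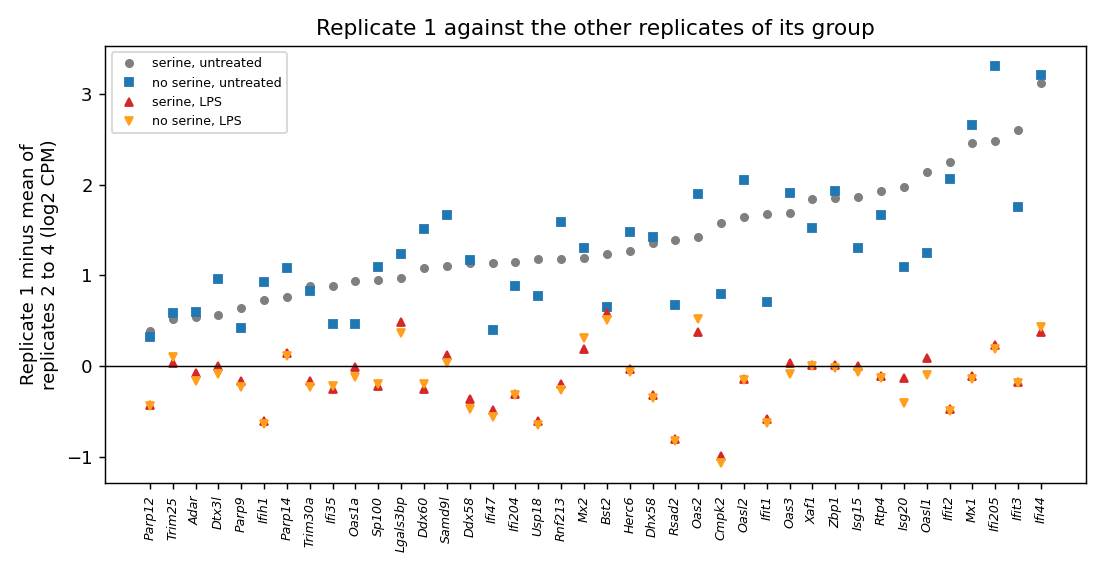
Replicate 1 minus the mean of replicates 2 to 4 of its group in log2 CPM for each of the 40 genes, ordered by the value in untreated cells with serine. Untreated values (circles and squares) are above 0 for all 40 genes, and LPS values (triangles) lie around 0.

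**Figure D5:**
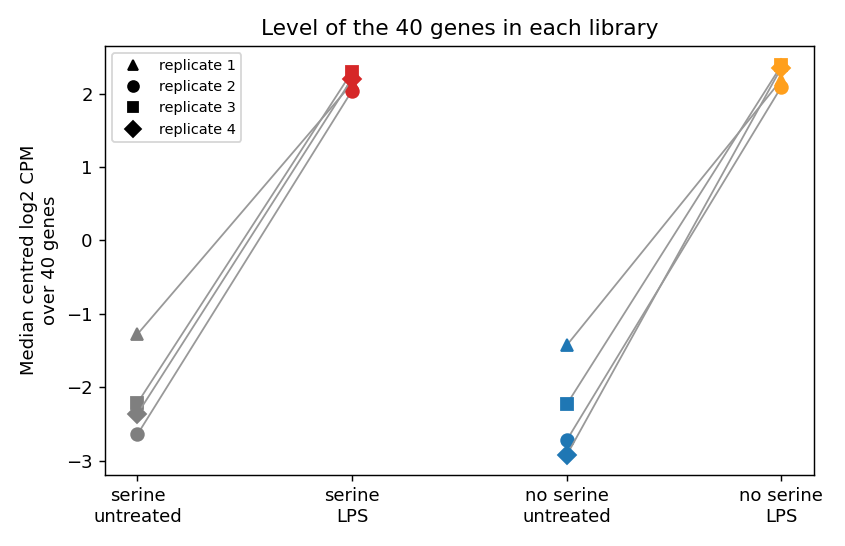
Median over the 40 genes of the log2 CPM, each gene centred on its mean over the 16 libraries, for each library; lines join libraries of the same replicate number and medium. Replicate 1 is the highest untreated library in both media, at -1.28 and -1.43, and the LPS libraries lie between 2.04 and 2.38.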

How the data were processed

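Counts per Ensembl gene, whole numbers with gene lengths, were made by the authors and deposited for 43430 genes, and their log2 fold changes and adjusted p-values for each comparison are deposited beside them, with scaling not stated. The submitters' processing notes list Trimmomatic 0.33, STAR, SAMtools, HTSeq, edgeR and mm10, with no role or order. A further 24 per-sample columns of the table were not used. In R 4.3.3 with edgeR 4.0.16 (limma 3.58.1), genes passing filterByExpr (minimum count 10) entered TMM scaling. edgeR's robust quasi-likelihood fit used group means over all 16 libraries, which share 1 estimate of spread (common dispersion 0.0438). Tests are two-sided, adjusted by Benjamini-Hochberg over the 11004 genes, with a threshold of 0.05. The standard error of the fit is the absolute log2 fold change divided by the square root of the test's F statistic. Intervals are 95%, from that standard error and 16.22 degrees of freedom, and log2 CPM used a prior count of 2.

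The members, the other lists (interferon pathway, cell type markers) and the tests were chosen with earlier results of these data known. Full statistics were given for a set list of members, shorter for withdrawal than for LPS, and for the 3 highest and 3 lowest fold changes. Same-numbered libraries deviated together across genes (correlations 0.217 to 0.415 and 0.125 to 0.397 for LPS, 0.185 to 0.609 and 0.333 to 0.66 for withdrawal), so numbers pair the samples, and a block for them was an alternative. Others were total-count scaling, no filter, fits of the compared groups only, DESeq2 1.42.0, and leaving out each library or number. Of 120 pairs of libraries none was a copy (lowest chi-square per degree of freedom 2.04). On simulated counts the model recovered 63.3% of 2-fold and 93.9% of 4-fold changes for LPS with serine, over 10740 genes. There 98 genes changed 2-fold and 99 changed 4-fold, up or down, with no effect of replicate number. In the data 6139 genes were called in that comparison, so these rates do not carry over to it.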

Additional observations from a re-analysis of the deposited data

Results flagged for a closer look

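In groups of 4 libraries, a value whose distance to its nearest neighbour took an unusually large share of the group's range was marked. For normally distributed values chance does this in about 1 of 20 groups, and the values used here were CPM without a log. Of the 40 genes, 18 were marked in untreated cells with serine, and in each the high value was that of replicate 1. In CPM these values were Mx1 (18.4), Mx2 (2.02), Isg15 (22.1), Ifit2 (96.8), Ifi44 (29.8), Oas1a (72.2), Oas2 (29.4), Oas3 (241) and Oasl2 (151), and also Usp18 (19.5), Zbp1 (37.1), Bst2 (225), Herc6 (37.7), Xaf1 (19.2), Ifi205 (8.99), Samd9l (104), Sp100 (110.1) and Rnf213 (535). In untreated cells without serine 5 genes were marked, again high in replicate 1: Ddx60 (25.4), Ifi44 (26.9), Oasl2 (156), Zbp1 (33.9) and Ifi205 (9.96). After LPS a single value was marked, replicate 2 with serine of Samd9l, low at 828 CPM. No marks were counted over all tested genes, so these counts have no background. In untreated cells replicate 1 was the highest in 36.6% of all genes with serine and 29.9% without. Marks that fall together on 1 library are not independent of one another. The members share that library, which was also the male sample of its group, and the cause was not tested.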

How the results depend on the processing

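The rise of the 40 genes after LPS held its direction under total-count scaling, no filter, the block, fits of the compared groups only, DESeq2 and each left-out library or number, with 38 to 40 members, Mx2 included, called with serine and 38 to 40 without. DESeq2 gave no adjusted p for Ifi205, which stays uncounted there. The block for replicate pairing changed the call of no member other than Bst2 without serine (0.91). Total-count scaling moved the mean level of LPS libraries to 1.89 and 1.95 (serine present and absent), and lost the call of Jak1 with serine (0.45), and turned Tlr4 to -0.51 and -0.0073 after LPS and to -0.037 for withdrawal without LPS, where the block gave -0.019. Withdrawal without LPS called 2 genes of all those tested with no filter, 9 with the block, 13 with DESeq2 and 79 with the block and untreated replicate 4 without serine left out. Withdrawal with LPS called 0 with total-count scaling, 4 with no filter, 35 in the compared groups only, 94 with DESeq2, 98 with the block, 922 with the block without that library, and 0 to 7 with a library or number left out. The difference called 1 with DESeq2 and 8 with the block without that library. In every one of these fits 0 members were called. For the signs of small withdrawal values, the block without that library gave Ifih1 at 0.21 and Samd9l at 0.059 in untreated cells, and Mx1 at -0.14, Ifih1 at -0.093 and Ifi204 at 0.033 for the difference, and DESeq2 gave Mx1 at -0.049 in untreated cells. With a library or number left out, the members' median ran -0.49 to 0.51 in untreated cells, -0.034 to 0.10 with LPS and -0.47 to 0.55 for the difference. Ranges that crossed 0 were, in untreated cells, Rsad2 -0.18 to 0.68, Mx1 -1.19 to 1.23, Isg15 -0.084 to 1.13, Ifih1 -0.28 to 0.21, Oasl1 -0.35 to 1.03, Ifi204 -0.11 to 0.53, Samd9l -0.73 to 0.13, Oas2 -1.001 to 0.29 and Bst2 -0.015 to 0.93. With LPS they were Rsad2 -0.029 to 0.31, Mx1 -0.037 to 0.20, Ifit1 -0.062 to 0.19, Isg15 -0.067 to 0.056, Usp18 -0.066 to 0.19, Ifih1 -0.015 to 0.24 and Ifi204 -0.027 to 0.13. For the difference they were Rsad2 -0.55 to 0.35, Mx1 -1.13 to 1.29, Isg15 -1.14 to 0.074, Ifih1 -0.098 to 0.40, Oasl1 -1.15 to 0.23, Ifi204 -0.48 to 0.16 and Rnf213 -0.014 to 0.90. The cause of these changes was not tested. Among the members, depth limits untreated Mx2 and Ifi205 most, with as few as 2 and 1 counts in a library.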
